A study of Mus musculus with 10 samples.

Results

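The 9 genes described here are the PDGF ligands Pdgfa and Pdgfb, the PDGF receptors Pdgfra and Pdgfrb, and the mural markers Rgs5, Notch3, Acta2, Myh11 and Cspg4. They were chosen by name, and these 9 protein-coding genes were all among the 31053 genes counted. In growing vessels, endothelial cells secrete PDGF-B, which is held near the vessel wall and binds PDGF receptor beta on pericytes, the mural cells that wrap capillaries. Vessels that lack this signal carry few pericytes, while PDGF-A acts mainly through PDGF receptor alpha on fibroblasts and other mesenchymal cells. Tumor vessels often carry loosely attached mural cells, which are recognised by a handful of genes, among them the 5 markers studied here.

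The libraries were made from E0771 tumors, a mouse mammary carcinoma line injected into the fourth mammary fat pad and taken at day 21, from female C57BL/6 mice aged 16 weeks. The hosts were EC-AGO1-KO mice (AGO1 flox/flox, with Cre under the VE-Cadherin promoter) and their WT littermates. The paper reports from earlier work that the deletion is confined to endothelial cells and is not found in monocytes. The injected tumor cells were the same in both groups. Single cell 3′ libraries were counted as unique molecular identifiers (UMIs), 5 libraries for WT and 5 for KO, with 1 of each in batch 1 and 4 of each in batch 2. The libraries called KO 2+3 and KO 5+6 pooled 2 tumors each.

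After filtering, 65298 cells remained, 968 to 10190 per library, with 6064580 to 8593422 UMIs per library. The median cell held 3862 to 4049 UMIs in batch 1 and 595 to 1142 in batch 2, so that batch 1 gave few, deeply counted cells and batch 2 many shallow ones. Among the 63136 cells of 8 libraries in batch 2, 492 barcode sequences occurred in more than 1 library. Batch 1, with 2162 cells in 2 libraries, had 0. The number that arises by coincidence, which grows with cells and libraries, was not worked out. Levels are given as CPM, the UMIs of a gene scaled to a common total of UMIs in a library or in a cell class within it, with Actb left out of the totals. A level over pooled libraries carries a 95% Poisson interval, which covers counting error only. Where a class held 0 UMIs, the level that 3 UMIs would give is printed as the limit, which is lower than the upper end of that interval. The deleted gene could not check the labels, because Ago1 had 0 UMIs in the endothelial-like cells of all 10 libraries.

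Cells were clustered without the 9 genes, and classes were named from other markers. Of the cells, 508 were dendritic-like, 65 were B-like and 1375 lay in clusters that stayed unnamed. The other classes comprised 58261 tumor-like cells, 576 fibroblast-like cells, 437 epithelial-like cells, 210 endothelial-like cells, 2230 myeloid-like cells, 1369 T-like cells and 267 cells of a single cluster led by Rgs5. That cluster, called the Rgs5 cluster here, held UMIs of all 12 mural markers used for naming, and 6 of the 12 passed the naming limits, beside 4 of 11 fibroblast markers. Higd1b reached 188 CPM in it and 0 in fibroblast-like, endothelial-like and T-like cells, Kcnj8 reached 65.0 CPM, and Abcc9, a potassium channel subunit of pericytes, reached 331 CPM against 24.4 in fibroblast-like cells. Other markers of the same list were higher elsewhere. Tagln stood at 253 CPM in the cluster and 757 in fibroblast-like cells, Ndufa4l2 at 84.5 and 113, and Mcam at 123 CPM against 203 in endothelial-like cells, while Cnn1 had 1 UMI in the cluster and stood at 11.1 CPM in fibroblast-like cells. The label did not hold without exception, because the collagen gene Col1a1 stood at 9436 CPM and Postn at 715 CPM in the same cluster, against 36109 and 2252 CPM in fibroblast-like cells. Tumor-like markers summed to 10039 to 15269 CPM per WT library and 5701 to 13297 CPM per KO library in the Rgs5 cluster, and to 10447 to 21487 and 10583 to 20889 CPM in the tumor-like cells themselves. These 8 markers were Pvt1, Fmnl2, Vim, Cdh13, Myc, Trp53, Esx1 and Aebp1, and they were scored against immune clusters only. The larger fibroblast-like cluster passed 7 of them, and the Rgs5 and endothelial-like clusters 6 each. A high sum was thus not particular to the Rgs5 cluster. The same markers summed to 6504 to 11803 and 9433 to 12941 CPM in fibroblast-like cells, and to 11009 to 14949 and 7617 to 10461 CPM in endothelial-like cells. The cluster is therefore named by its leading gene. Fibroblast-like, myeloid-like and T-like cells of the 2 batches came mostly from different clusters, so levels in these classes are given by batch.

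Promoters are shown for Rgs5, Notch3 and Acta2, the mural markers detected in the most cells of the Rgs5 cluster, because genes of contractile mural cells are known targets of serum response factor, which binds the CArG box, and of RBPJ, the DNA-binding partner of Notch, which binds TGGGAA. Each run is the 250 bases before the RefSeq start site on the gene's own strand in GRCm38.p6. They lie at chr1:169655251-169655500 on the plus strand for Rgs5, chr17:32166891-32167140 on the minus strand for Notch3 and chr19:34255374-34255623 on the minus strand for Acta2. Capitals mark CArG-like boxes, which open with CC, end with GG and differ from the full box by 1 central base that is not A or T.
Rgs5: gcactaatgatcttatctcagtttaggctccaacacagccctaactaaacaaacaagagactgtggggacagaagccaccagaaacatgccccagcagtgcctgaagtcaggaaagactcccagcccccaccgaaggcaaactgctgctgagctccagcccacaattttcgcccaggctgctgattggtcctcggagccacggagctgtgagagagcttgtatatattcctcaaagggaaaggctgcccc
Notch3: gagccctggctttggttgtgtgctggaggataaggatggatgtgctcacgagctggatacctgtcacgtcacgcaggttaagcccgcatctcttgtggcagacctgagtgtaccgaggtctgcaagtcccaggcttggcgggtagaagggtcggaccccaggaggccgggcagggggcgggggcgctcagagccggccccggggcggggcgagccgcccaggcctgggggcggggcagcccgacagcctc
Acta2: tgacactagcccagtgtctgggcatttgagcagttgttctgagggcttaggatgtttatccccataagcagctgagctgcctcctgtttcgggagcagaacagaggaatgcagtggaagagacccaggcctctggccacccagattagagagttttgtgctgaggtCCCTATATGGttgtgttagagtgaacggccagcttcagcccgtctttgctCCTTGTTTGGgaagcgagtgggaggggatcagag
The Acta2 window held CArG-like boxes 84 and 34 bases before the start site and 1 match to TGGGAA, with both strands searched, and the second box overlaps that match. CArG-like boxes, full boxes included, occur in 8.59% of the 32851 RefSeq windows of this length, full boxes in 1.47% and TGGGAA in 21.6%. The Rgs5 and Notch3 windows held neither motif. The GENCODE annotation places the outermost start of Acta2 inside its window, so part of that run is transcribed in some Acta2 isoforms. These matches are descriptions of letters and not of bound sites.

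Rgs5, a regulator of G protein signaling and a standard marker of pericytes, was found mainly in the Rgs5 cluster, without having served to form it. In batch 2 it stood at 5552 CPM (95% interval 5173 to 5951) in the Rgs5 cluster, at 313 CPM (210 to 450) in endothelial-like cells, at 29.4 CPM in fibroblast-like cells and at 1.87 CPM in tumor-like cells. T-like cells, which should not express it, gave 14.0 CPM (5.15 to 30.6), and barcodes with at most 50 UMIs, which hold free RNA, gave 33.7 CPM. The fibroblast-like interval (13.5 to 55.9) overlapped that of T-like cells and the tumor-like value was below both backgrounds, whereas the endothelial-like value was above them. In batch 1, the Rgs5 cluster had only 4 cells, all in the WT library, and these stood at 7047 CPM (5533 to 8847).

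The endothelial-like Rgs5 signal came from few cells. It rested on 29 UMIs in 9 cells, of which 15 UMIs in 3 cells were from KO 2+3 and 10 UMIs in 4 cells from KO 4, while KO 1 and KO 5+6 held 0 UMIs. None of the 9 cells had a UMI of a pericyte marker from the naming list, and 3 had a UMI of an endothelial marker. Rgs5 did not pass the filter in this class, and without the filter its log2 fold change, KO over WT, was 1.99 (SE 0.74, edgeR unadjusted p = 0.00732, adjusted p = 0.673).

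**Figure D1:**
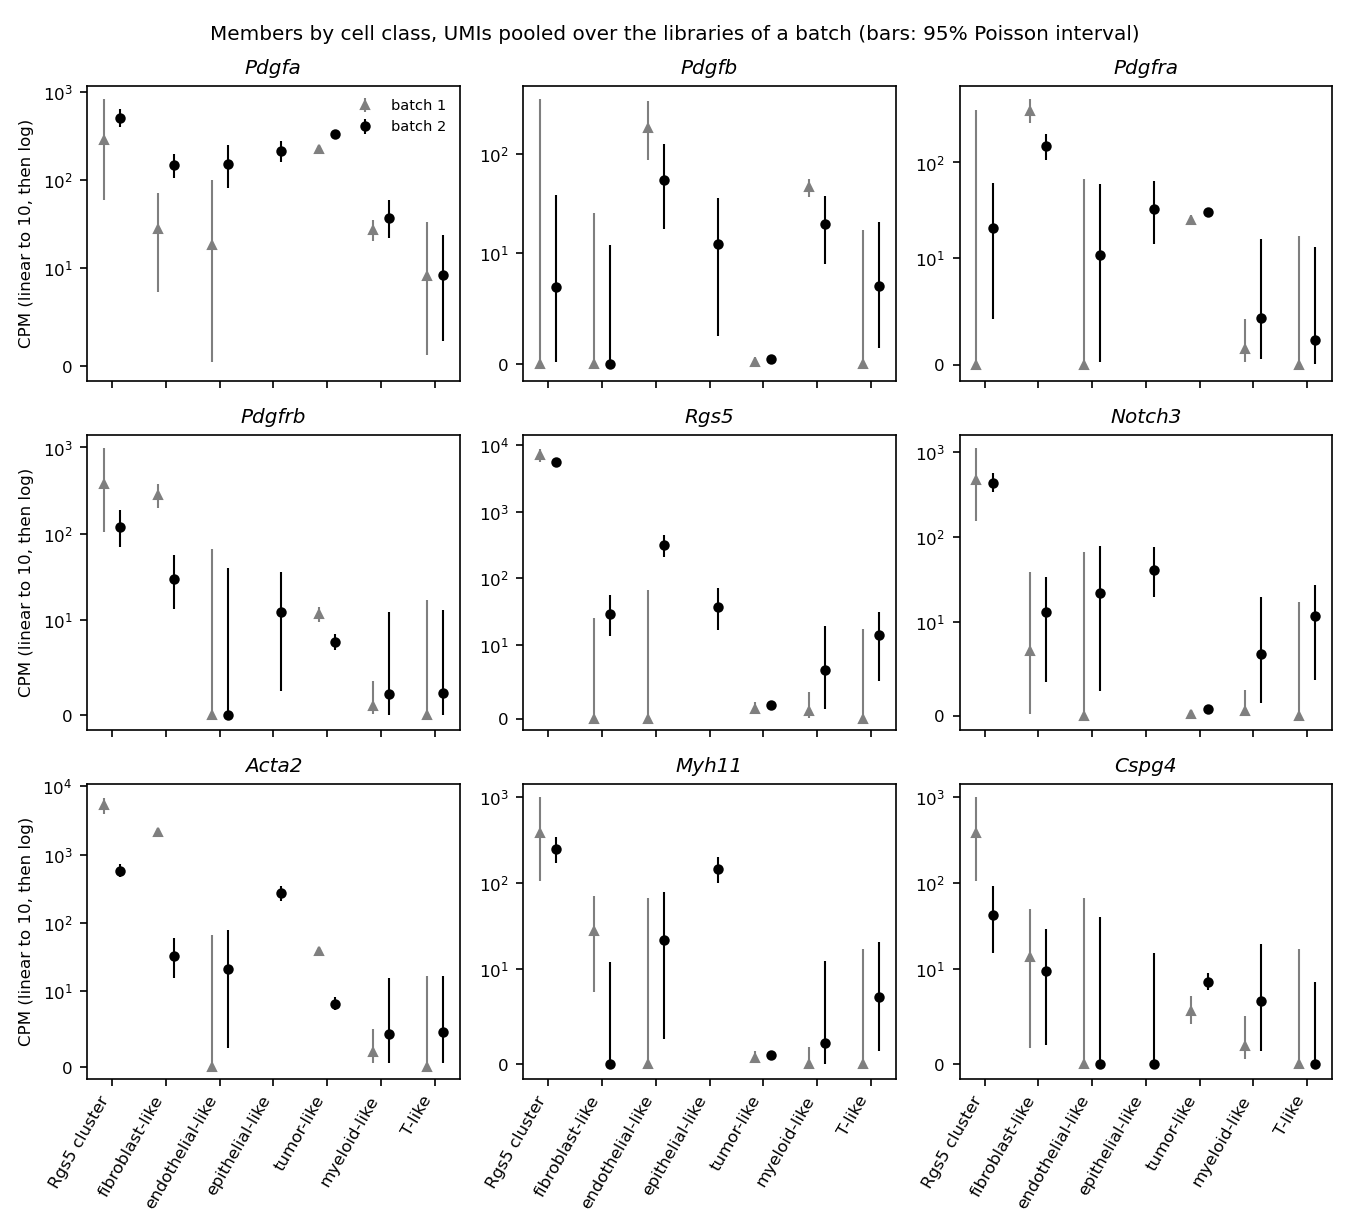
Levels of the 9 genes by cell class in CPM, on an axis that is linear to 10 and logarithmic above, with a point for each batch and bars for the 95% Poisson interval. Rgs5, Notch3 and Myh11 are highest in the Rgs5 cluster, Pdgfra in fibroblast-like cells and Pdgfb in endothelial-like cells.

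Within the Rgs5 cluster, Rgs5 was detected in 182 of 267 cells (68.2%, Wilson 95% interval 62.4 to 73.5), against 3 of 1369 T-like cells (0.219%). The median depths were 426 and 356 UMIs per cell. Acta2 was detected in 62 cells of the cluster (23.2%), Notch3 in 56 (21.0%), Myh11 in 29 (10.9%), Pdgfrb in 20 (7.49%) and Cspg4 in 8. In T-like cells these 5 genes were each detected in 0.365% of cells or fewer. Of the 56 cells with Notch3, 44 also had Rgs5, and of the 62 cells with Acta2, 46 had Rgs5. At least 2 of the 6 genes were found together in 103 cells and none in 53 cells, at a depth at which a gene present in a cell can be missed.

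Notch3, the Notch receptor of vascular smooth muscle cells and pericytes, followed Rgs5 across classes. It stood at 439 CPM (338 to 562) in the Rgs5 cluster of batch 2, at 41.1 CPM (19.7 to 75.6) in epithelial-like cells, at 21.6 CPM (2.62 to 78.0) in endothelial-like cells and at 0.713 CPM in tumor-like cells. T-like cells gave 11.7 CPM (3.80 to 27.3) and free RNA 20.3 CPM. The intervals of the epithelial-like, endothelial-like and T-like values overlapped. Across the 31 clusters, Pearson's r between Notch3 and Rgs5 on the log2(CPM + 20) scale was 0.89, a description over clusters that share libraries and depth.

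Acta2, the smooth muscle actin of contractile mural cells and of activated fibroblasts, differed between batches. In the Rgs5 cluster it stood at 5238 CPM in the 4 cells of batch 1 and at 586 CPM (467 to 725) in batch 2. In fibroblast-like cells it stood at 2160 CPM in batch 1 and 32.7 CPM (15.7 to 60.1) in batch 2. The batch 1 fibroblast-like value came from 21 cells, of which 20 formed a cluster of their own that carried 11 of 11 fibroblast markers and 6 of 12 mural markers. In these cells 1 cell of the WT library held 172 of its 229 UMIs and 1 cell of the KO library 52 of its 83 UMIs. Epithelial-like cells, found only in batch 2 and carrying 5 of 5 markers of myoepithelial cells, the contractile cells of mammary ducts, held Acta2 at 271 CPM (210 to 345), and tumor-like cells held it at 39.5 CPM in batch 1 and 8.31 CPM in batch 2. The batch 2 tumor-like level was below that of free RNA, 11.9 CPM, whereas the batch 1 level was above that of free RNA, 21.7 CPM.

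Myh11, the smooth muscle myosin heavy chain, was present in the Rgs5 cluster at 244 CPM (170 to 339) and in epithelial-like cells at 144 CPM (100 to 200) in batch 2, and these intervals overlap. Fibroblast-like cells of batch 2 held 0 UMIs, which allows up to 9.81 CPM, and tumor-like cells stood at 0.959 CPM. Free RNA gave 26.1 CPM and T-like cells 7.02 CPM.

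Cspg4, the NG2 proteoglycan of pericytes, was highest in the Rgs5 cluster, on few UMIs. It stood at 41.8 CPM (15.4 to 91.1) there in batch 2, from 6 UMIs, and at 8.63 CPM (7.79 to 9.53) in tumor-like cells, which held 387 of its 409 UMIs. Endothelial-like, epithelial-like and T-like cells of batch 2 held 0 Cspg4 UMIs, which allows up to 32.4, 12.3 and 7.02 CPM. In batch 2 the tumor-like interval included the free RNA level of 9.50 CPM, whereas the interval of the Rgs5 cluster lay above it. In batch 1 tumor-like cells stood above free RNA, at 4.83 against 1.63 CPM in WT batch 1 and 6.39 against 0 CPM in KO batch 1. Whether tumor-like cells express Cspg4 was not tested.

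Pdgfb, the ligand of PDGF receptor beta, was highest in endothelial-like cells. It stood there at 182 CPM (87.1 to 334) in batch 1 and 54.0 CPM (17.5 to 126) in batch 2, from 10 and 5 UMIs. Myeloid-like cells held 45.9 CPM (37.0 to 56.2) in batch 1 and 19.8 CPM (9.07 to 37.6) in batch 2, and T-like cells 0 and 7.02 CPM (1.45 to 20.5). In batch 2 the endothelial-like, myeloid-like and T-like intervals overlapped. Because myeloid-like cells made up 14.8% of the UMIs in batch 1 and 0.949% in batch 2, they carried 93 of the 105 Pdgfb UMIs of batch 1 and 9 of the 46 of batch 2. Fibroblast-like cells held 0 UMIs in either batch and the Rgs5 cluster held 1.

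Pdgfa, the ligand of PDGF receptor alpha, was mainly a tumor-like transcript by amount. Tumor-like cells held 97.4% of its UMIs in batch 1 and 97.0% in batch 2, at 224 CPM (216 to 233) and 335 CPM (330 to 341). The Rgs5 cluster reached 516 CPM (405 to 648) in batch 2 on 74 UMIs, epithelial-like cells 214 CPM (160 to 280), endothelial-like cells 151 CPM (82.7 to 254) and fibroblast-like cells 147 CPM (107 to 197). T-like cells stood at 9.36 CPM (2.55 to 24.0) in the same batch, and free RNA at 188 CPM (180 to 197). The level in the Rgs5 cluster was above both, while the fibroblast-like and endothelial-like levels were below that of free RNA. The markers of tumor-like cells, given above, were at similar levels in the Rgs5 cluster, fibroblast-like cells and endothelial-like cells, not far below tumor-like cells. They were scored against immune clusters only, so their sums cannot tell tumor RNA from the RNA of these classes. The part of tumor RNA in the Pdgfa level of the Rgs5 cluster was not tested. Of the 51 cells of the Rgs5 cluster with Pdgfa, 36 also had Rgs5.

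Pdgfra, the receptor that marks fibroblasts and other mesenchymal cells, was highest in fibroblast-like cells, at 346 CPM (257 to 456) in batch 1 and 147 CPM (107 to 197) in batch 2. Tumor-like cells stood at 25.1 CPM (22.2 to 28.2) and 30.1 CPM (28.6 to 31.8) and, being the most numerous, held 1352 of 1442 UMIs in batch 2. T-like cells stood at 2.34 CPM (0.0592 to 13.0) in batch 2, below the tumor-like interval. The Rgs5 cluster held 3 Pdgfra UMIs in batch 2, 20.9 CPM (4.31 to 61.1).

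Pdgfrb, the receptor for PDGF-B on pericytes and fibroblasts, was higher in the Rgs5 cluster than in fibroblast-like cells in batch 2, at 119 CPM (69.1 to 190) against 29.4 CPM (13.5 to 55.9). In batch 1 both classes held it, at 381 CPM (104 to 975) from 4 UMIs and at 277 CPM (198 to 377). Tumor-like cells stood at 11.7 CPM (9.81 to 13.9) in batch 1 and 7.67 CPM (6.88 to 8.52) in batch 2, where free RNA was at 13.1 CPM. Endothelial-like cells held 0 Pdgfrb UMIs in either batch, which allows up to 54.5 and 32.4 CPM.

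The genes whose levels followed each of the 9 most closely over the 31 clusters are given as a description, with Pearson's r on the log2(CPM + 20) scale. Closest to Rgs5 were Gm13889 (r = 0.95), Gm43803 (0.92) and the pericyte channel subunit Abcc9 (0.92). Notch3 was followed by the cation channel gene Trpc6 (0.95), Acta2 by the smooth muscle gene Tagln (0.95) and Myh11 by Gm48529 (0.95) and the myosin light chain kinase gene Mylk (0.94). Pdgfrb was followed by Crispld2 (0.97) and the stromal antigen Cd248 (0.96), Pdgfra by the matrix genes Fbln2 (0.94) and Dpt (0.92), and Pdgfb by the endothelial gene Cd93 (0.85). Pdgfa had Kazald1 (0.95) and Ano1 (0.94) nearest to it, and Cspg4 had Gm29083 (0.79), the lowest of these first neighbours.

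WT and KO tumors were then compared over libraries, to ask whether loss of endothelial AGO1 went with a change in PDGF signaling genes or mural cells. UMIs were summed per library, or per class and library where a class had at least 10 cells, and tested by edgeR's quasi-likelihood test with batch in the model and Benjamini-Hochberg adjustment over all genes tested. No member was called at an adjusted p under 0.05 in any of these 5 fits. In whole libraries 8 members were tested and 0 called, beside 0% of all 12450 genes. In tumor-like cells 6 members were tested and 0 called, beside 0% of 11638 genes, and in the Rgs5 cluster 2 were tested and 0 called, beside 0% of 270 genes. At an unadjusted p under 0.05, 2 of the 8 members differed in whole libraries beside 8.85% of all genes, 1 of 6 in tumor-like cells beside 5.27% and 0 of 2 in the Rgs5 cluster beside 13.3%. The fibroblast-like and endothelial-like fits held no member, with 861 and 222 genes tested and 0.232% and 0% of them called. DESeq2 called 2 genes in whole libraries and 2 in tumor-like cells, none of them a member.

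**Figure D2:**
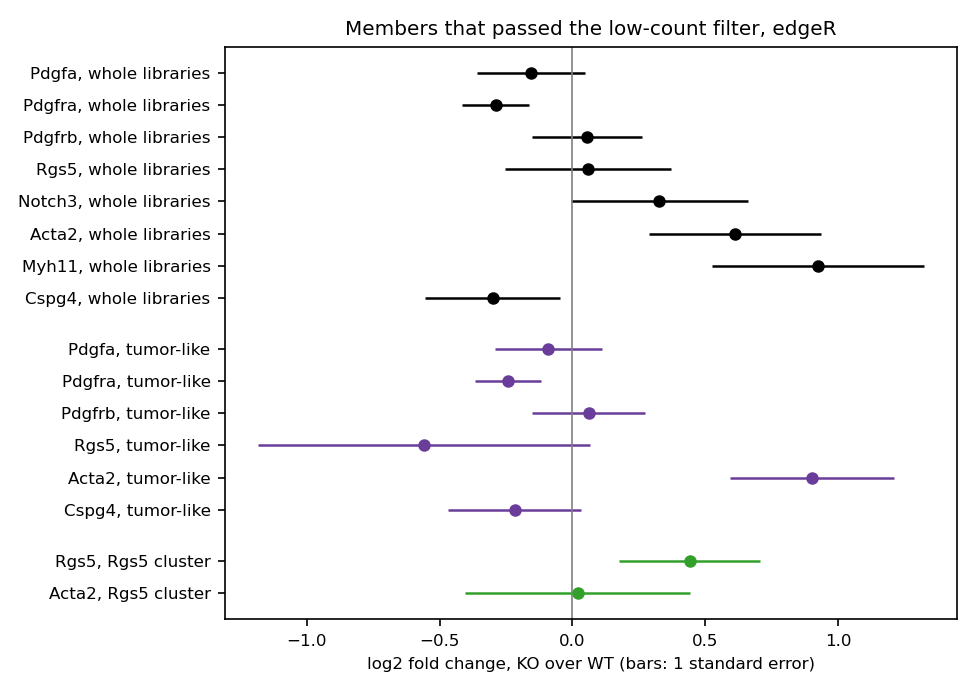
Log2 fold changes, KO over WT, for the members that passed the low-count filter in whole libraries, tumor-like cells and the Rgs5 cluster, with bars of 1 standard error. The largest shifts are Myh11 in whole libraries (0.92) and Acta2 in tumor-like cells (0.90), and none passed the adjusted threshold.

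In whole libraries, fewer cells of a type and less RNA per cell cannot be told apart. Myh11 there stood at 1.52 CPM in WT batch 1 and 1.43, 0.920, 1.78 and 1.89 CPM in WT 1, WT 3, WT 4 and WT 5. It stood at 0.767 CPM in KO batch 1 and 6.48, 3.33, 1.84 and 3.59 CPM in KO 1, KO 2+3, KO 4 and KO 5+6. The KO libraries of batch 2 were above the WT libraries except that KO 4 lay below WT 5, while in batch 1 the KO library was the lower one. The log2 fold change of Myh11 was 0.92 (SE 0.40, edgeR unadjusted p = 0.0344, adjusted p = 0.539). It was 1.26 within batch 2 and 0.53 without KO 1.

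The classes that held Myh11 differed in number between libraries. Epithelial-like cells numbered 7, 7, 71 and 25 in WT 1, WT 3, WT 4 and WT 5, and 185, 51, 16 and 75 in KO 1, KO 2+3, KO 4 and KO 5+6. Of the 39 Myh11 UMIs of KO 1, 19 were in epithelial-like cells and 8 in the Rgs5 cluster. Free RNA of batch 2 held Myh11 at 11.7 to 23.4 CPM in WT libraries and at 29.1 to 37.5 CPM in KO libraries. The share of all genes that separate the groups in free RNA was not counted, so this range is a description only. The part of these cells and of free RNA in the whole-library difference was not tested.

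In the Rgs5 cluster, Myh11 had 4, 0, 0 and 5 UMIs in WT 1, WT 3, WT 4 and WT 5, and 8, 9, 2 and 7 UMIs in KO 1, KO 2+3, KO 4 and KO 5+6. These counts gave 105 ± 121 CPM (SD, n = 4) for WT and 386 ± 232 CPM for KO, with overlapping groups. Myh11 did not pass the low-count filter in this class. Without the filter its log2 fold change was 1.51 (SE 0.59, edgeR unadjusted p = 0.0105, adjusted p = 0.568).

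Rgs5 in the Rgs5 cluster stood at 5272, 4917, 3070 and 5281 CPM in WT 1, WT 3, WT 4 and WT 5, and at 7067, 6366, 5662 and 6211 CPM in KO 1, KO 2+3, KO 4 and KO 5+6. Every KO library was above every WT library of batch 2, as were 1.48% of the 270 genes tested in this class, while the 4 cells of WT batch 1 stood at 7047 CPM. The log2 fold change of Rgs5 was 0.44 (SE 0.26, edgeR unadjusted p = 0.104, adjusted p = 0.530) over the 8 libraries with at least 10 such cells. The largest gap was made by WT 4, whose value rested on 38 UMIs in 20 cells. Fibroblast markers in the cluster summed to 7300 to 11210 CPM in WT libraries and 9989 to 20156 CPM in KO libraries, with overlap. The part of the cluster's make-up in the Rgs5 difference was not tested. In whole libraries Rgs5 spanned 9.27 to 21.2 CPM in WT and 16.3 to 30.7 CPM in KO within batch 2, with a log2 fold change of 0.06 (SE 0.31), which was 0.41 (edgeR unadjusted p = 0.0974) within batch 2, -0.01 by DESeq2 and -0.35 without the pooled KO libraries. In tumor-like cells, where Rgs5 was below its background, its log2 fold change was -0.56 (SE 0.62, edgeR adjusted p = 0.918), and -1.36 within batch 2 (edgeR unadjusted p = 0.0135, adjusted p = 0.821).

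Acta2 in the Rgs5 cluster spread widely within each group. It stood at 785, 459, 1131 and 194 CPM in WT 1, WT 3, WT 4 and WT 5, from 5 to 14 UMIs each, and at 402, 958, 254 and 686 CPM in KO 1, KO 2+3, KO 4 and KO 5+6, from 4 to 18 UMIs each. The groups overlapped, and the log2 fold change of 0.02 changed sign under several settings, among them DESeq2 (-0.07) and no TMM scaling (-0.005).

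Acta2 in tumor-like cells separated the groups of batch 2. In batch 1, with 1 library per group, it stood at 33.1 CPM in WT batch 1 and 46.9 CPM in KO batch 1. In batch 2 it stood at 7.08, 6.79, 7.38 and 0.994 CPM in WT 1, WT 3, WT 4 and WT 5, and at 10.8, 10.7, 9.93 and 15.9 CPM in KO 1, KO 2+3, KO 4 and KO 5+6. Every KO library of batch 2 was above every WT library, as were 2.4% of the 11638 genes tested. The log2 fold change of Acta2 was 0.90 (SE 0.31, edgeR unadjusted p = 0.0100, adjusted p = 0.875), with 1.07 within batch 2 and 0.63 without WT 5. With no filter on low counts the same gene was called, at 0.88 (edgeR adjusted p = 0.00281), the only member called in any setting. Far more genes were called in that setting than with the filter, as counted below. In whole libraries the SE of Acta2 was 0.17 without the filter and 0.32 with it, at log2 fold changes of 0.57 and 0.61. The call therefore rests on the setting.

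Other values stood beside the Acta2 difference. The 12 pericyte markers summed to 5.12 to 10.3 CPM in tumor-like cells of WT libraries and 5.25 to 17.4 CPM in KO libraries, with Vtn at 0. The 5 myoepithelial markers, all detected, summed to 0.166 to 2.77 and 0.775 to 4.08 CPM, and the 11 fibroblast markers, all detected, to 42.6 to 284 and 56.8 to 332 CPM. Free RNA of batch 2 held Acta2 at 9.59 to 13.9 CPM in WT and 8.06 to 16.5 CPM in KO libraries, with overlap. In batch 2 the Acta2 UMIs lay in many tumor-like cells with 1 to 3 each, as in KO 5+6 with 82 UMIs in 71 cells. With free RNA subtracted, the log2 fold change of Acta2 in tumor-like cells was 1.03 (SE 0.44, edgeR unadjusted p = 0.0353). The subtraction took at most 4.89% (KO batch 1) to 11.4% (KO 1) of all tumor-like UMIs. It follows each gene's level in free RNA, so it can take a larger part of a low count. In WT 5 the tumor-like Acta2 count was 7 UMIs, and the part taken there was not counted. The part of free RNA and of the other cells in the difference was not tested. In whole libraries Acta2 had a log2 fold change of 0.61 (SE 0.32, edgeR adjusted p = 0.602). It was 0.99 within batch 2 (edgeR unadjusted p = 0.0118), 0.99 without WT batch 1, 0.98 without KO batch 1, 0.33 without WT 5, 0.35 without the pooled KO libraries and 0.11 without a batch term.

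Pdgfa in tumor-like cells stood at 221 CPM in WT batch 1 and 228 CPM in KO batch 1, at 181, 332, 524 and 350 CPM in WT 1, WT 3, WT 4 and WT 5, and at 327, 377, 311 and 313 CPM in KO 1, KO 2+3, KO 4 and KO 5+6. The KO libraries of batch 2 lay inside the WT range, which ran from WT 1 to WT 4. The log2 fold change of Pdgfa was -0.09 (SE 0.20, edgeR adjusted p = 0.963) in tumor-like cells and became 0.14 without WT 4.

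Pdgfra in tumor-like cells stood at 27.0 CPM in WT batch 1 and 22.9 CPM in KO batch 1, at 30.6, 30.9, 33.9 and 32.4 CPM in WT 1, WT 3, WT 4 and WT 5, and at 27.1, 22.1, 31.0 and 31.8 CPM in KO 1, KO 2+3, KO 4 and KO 5+6. KO 1 and KO 2+3 were below every WT library of batch 2, and KO 4 and KO 5+6 were among them. The log2 fold change of Pdgfra was -0.24 (SE 0.12, edgeR unadjusted p = 0.0694, adjusted p = 0.875) in tumor-like cells and -0.29 (SE 0.13, unadjusted p = 0.0361, adjusted p = 0.544) in whole libraries. In fibroblast-like cells of batch 2 it stood at 143 ± 62.4 CPM (SD, n = 4) in WT and 163 ± 50.2 CPM in KO, with 3 to 10 UMIs per library, and did not pass the filter for a test.

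Pdgfrb showed no separation of the groups. In the Rgs5 cluster it had 2, 0, 1 and 4 UMIs in WT 1, WT 3, WT 4 and WT 5 and 2, 2, 1 and 5 UMIs in KO 1, KO 2+3, KO 4 and KO 5+6. In whole libraries of batch 2 it spanned 5.88 to 10.3 CPM in WT and 6.30 to 10.8 CPM in KO, and its log2 fold change was 0.05 (SE 0.21, edgeR adjusted p = 0.970). The sign of the Pdgfrb difference changed when single libraries were left out.

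Pdgfb, the ligand made by the cells that carry the deletion, did not pass the low-count filter in any of the 5 fits. Endothelial-like cells held 3 Pdgfb UMIs in the 9 cells of WT batch 1 and 7 UMIs in the 7 cells of KO batch 1. In batch 2 they held 1, 0, 0 and 1 UMIs in WT 1, WT 3, WT 4 and WT 5, and 2, 0, 1 and 0 in KO 1, KO 2+3, KO 4 and KO 5+6. A difference in endothelial Pdgfb was not detectable at this depth. Without the filter, the log2 fold change of Pdgfb was 0.01 (SE 1.43, edgeR unadjusted p = 0.997) in endothelial-like cells, -0.29 (SE 0.36, edgeR unadjusted p = 0.420) in whole libraries and -0.90 (SE 0.70, edgeR unadjusted p = 0.199) in tumor-like cells. Whole libraries of batch 2 held it at 0.430 to 1.66 CPM in WT and 0.539 to 1.48 CPM in KO, with overlap.

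Notch3 and Cspg4 overlapped between groups. Notch3 in the Rgs5 cluster stood at 280, 590, 162 and 427 CPM in WT 1, WT 3, WT 4 and WT 5, and at 562, 789, 445 and 305 CPM in KO 1, KO 2+3, KO 4 and KO 5+6, from 2 to 14 UMIs each. In whole libraries Notch3 had a log2 fold change of 0.33 (SE 0.33, edgeR adjusted p = 0.826) and Cspg4 one of -0.30 (SE 0.26, edgeR adjusted p = 0.770). Leaving out 1 library moved Notch3 between 0.15 (without WT 1) and 0.52 (without WT batch 1, and also without WT 3) and Cspg4 between -0.20 (without WT 5) and -0.50 (without WT 3, edgeR unadjusted p = 0.0273). Cspg4 in tumor-like cells of batch 2 spanned 4.07 to 11.8 CPM in WT and 6.09 to 9.68 CPM in KO.

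Other genes of the pathway gave no call either. Of 22 further PDGF pathway genes, which include the ligands Pdgfc and Pdgfd and the adaptors and kinases downstream of the receptors, 21 were tested in whole libraries and 0 were called, with a median log2 fold change of -0.06 against -0.00 over all genes. Of 20 contractile and mural genes 9 were tested with a median of 0.06, and of 14 Notch genes 6 were tested with a median of -0.14, and none was called. At an unadjusted p under 0.05, 2 PDGF pathway genes were higher and 1 lower in KO, and 1 Notch gene was higher, beside 5.61% of all genes higher and 3.24% lower. Pdgfc, a ligand of PDGF receptor alpha, had a log2 fold change of 0.58 (SE 0.30, edgeR adjusted p = 0.589) and Pdgfd, a ligand of PDGF receptor beta, one of 0.40 (SE 0.28, edgeR adjusted p = 0.713).

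Pdgfd was found with Pdgfb in endothelial-like cells, at 163 CPM (74.7 to 310) in batch 1 and 259 CPM (166 to 386) in batch 2, where T-like cells stood at 4.68 CPM (0.567 to 16.9). It was also found in fibroblast-like cells at 83.1 and 81.7 CPM and in the Rgs5 cluster at 69.7 CPM (33.4 to 128) in batch 2, with free RNA at 59.0 CPM. Pdgfc was highest in epithelial-like cells, at 177 CPM (128 to 238), and in myeloid-like cells, at 81.5 CPM (57.4 to 112), in batch 2. The Rgs5 cluster held 0 Pdgfc UMIs in batch 2, which allows up to 20.9 CPM.

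The number of Rgs5 cluster cells was compared as a share, because classes were found without the 9 genes. Among cells of all classes other than tumor-like, the cluster made up 4.46 ± 2.13% (SD, n = 5) in WT and 3.22 ± 2.17% in KO, a difference of -1.23 percentage points (exact permutation test within batch, two-sided, p = 0.1). These cells, called non-tumor here, include the 1375 unnamed cells. Unnamed clusters of 724 and 342 cells passed 7 of the 8 tumor-like markers, so tumor RNA in the denominator cannot be set aside. Over all cells the direction was the opposite, with 0.360 ± 0.0990% in WT and 0.393 ± 0.246% in KO. Among non-tumor cells the difference was -1.87 points without both pooled KO libraries (exact permutation p = 0.0333) and also -1.87 points without KO 5+6 alone (exact permutation p = 0.0143), each the smallest p its design allows.

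Beside endothelial-like cells, Rgs5 cluster cells made up 30.8% of both in WT batch 1 and 0% in KO batch 1. In batch 2 they made up 65.1, 65.9, 69.0 and 57.7% in WT 1, WT 3, WT 4 and WT 5, and 49.3, 59.4, 46.4 and 56.3% in KO 1, KO 2+3, KO 4 and KO 5+6. KO 2+3 lay above WT 5, and the other KO libraries of batch 2 lay below every WT library. The counts behind these shares are given next, and which of them moved the share was not tested. Endothelial-like cells of batch 2 numbered 22, 15, 9 and 22 in WT 1, WT 3, WT 4 and WT 5 and 35, 26, 30 and 35 in KO 1, KO 2+3, KO 4 and KO 5+6, each KO library above each WT library. This was not particular to endothelial-like cells. All cells other than tumor-like numbered 661, 597, 349 and 639 in WT and 752, 1462, 803 and 781 in KO, again each KO library above each WT library. Rgs5 cluster cells numbered 41, 29, 20 and 30 in WT and 34, 38, 26 and 45 in KO, with overlap and not fewer in KO. The means of the share were 57.7 ± 15.6% (SD, n = 5) in WT and 42.3 ± 24.2% in KO, a difference of -15.4 percentage points (exact permutation test within batch, two-sided, p = 0.0286, 0.0571 after adjustment over the 2 share tests, smallest possible p = 0.0143). Within batch 2 the difference was -11.6 points (exact permutation p = 0.0571), and without KO batch 1, which held 7 endothelial-like cells and no Rgs5 cluster cell, it was -4.85 points (exact permutation p = 0.557), with no KO library left in batch 1. Without WT 1, WT 3, WT 4 or WT 5 in turn it ran from -15.4 to -12.6 points and no longer passed. The adjusted p of this share did not pass the threshold.

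**Figure D3:**
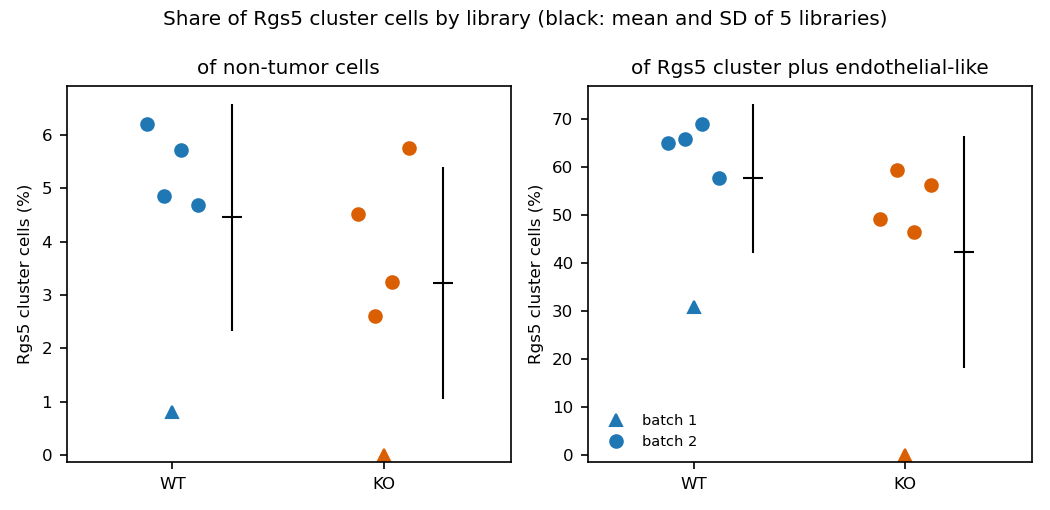
Rgs5 cluster cells by library as a percentage of non-tumor cells and of Rgs5 cluster plus endothelial-like cells. Symbols give the batch, and black bars the mean and SD of the 5 libraries of a group. Non-tumor cells are all classes other than tumor-like, unnamed cells included. The KO mean is lower in both (3.22 against 4.46% and 42.3 against 57.7%), and the groups of batch 2 overlap.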

How the data were processed

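The authors deposited raw UMI counts per gene and barcode, empty droplets included, which the submitters' processing notes credit to Cell Ranger 7.1.0 on mm10. Cells were barcodes in which 200 to 7000 genes were detected and mitochondrial genes gave no more than 10% of UMIs. Doublets were not removed. Actb, over 5% of UMIs in batch 2, was left out. Cells were clustered in 2 rounds on 2000 variable genes without the members (30 principal components, 15 neighbours, leidenalg 0.10.2, resolution 1, Python 3.11.15). A class name needed 5 markers at 2-fold above the other clusters in at least 2% of cells, and tumor-like 3, a rule set after the clusters had been seen. Counts were summed per library and class and tested by edgeR 4.0.16 (quasi-likelihood, TMM, filterByExpr, batch term) in R 4.3.3, and shares by exact permutation within batch. p-values measure the spread between these libraries. The study's own test treats cells as replicates and was not used. Alternatives were DESeq2 1.42.0, other filters, scalings, batches and class definitions, and each library left out.

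The members and lists were chosen with earlier results of these data known. All 9 members are reported, with the other PDGF, contractile and Notch lists as counts and the 3 genes most alike each member over clusters. On simulated data drawn at the real means, the test recovered 94.5% of changed genes in whole libraries with 13 false calls, 95.5% in tumor-like cells with 8, 77.8% in the Rgs5 cluster with 0, 83.7% in fibroblast-like cells with 2 and 63.6% in endothelial-like cells with 1. The size of the changes and the spread between libraries in these simulated data are not given here. Recovery of shifts of the size seen in the members was not tested. Promoter sequences are from RefSeq and matched 6 of the 9 members.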

Additional observations from a re-analysis of the deposited data

Results flagged for a closer look

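Of the groups of 4 or 5 libraries examined for a single library far from the rest, 7 of 36 had one, where chance gives about 1 in 20 if libraries are alike but for chance. Of the 7, 6 were batch 1 libraries set beside those of batch 2, so that figure does not apply to them. Both batch 1 libraries were far above the others for Acta2. In whole libraries WT batch 1 stood at 67.3 CPM with the next WT library at 11.2, and KO batch 1 at 50.004 CPM with the next KO library at 19.9. In tumor-like cells WT batch 1 stood at 33.1 CPM with the next at 7.38, and KO batch 1 at 46.9 CPM with the next at 15.9. Batch 1 libraries held fewer cells at a greater depth per cell, and the part of the batch in these Acta2 levels was not tested.

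Rgs5 in the Rgs5 cluster was lowest in WT 4, at 3070 CPM, with the next WT library of batch 2 at 4917 CPM. Rgs5 cluster cells made up 0.806% of non-tumor cells in WT batch 1, with the next WT library at 4.69%. They made up 0% of Rgs5 cluster plus endothelial-like cells in KO batch 1, with the next KO library at 46.4%.

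The KO minus WT difference in Rgs5 was larger in the Rgs5 cluster than in tumor-like cells of batch 2 by 0.58 on the log2(CPM + 20) scale (exact permutation test over 70 arrangements, p = 0.0286, the smallest it can give). Tumor-like Rgs5 stood at 1.87 CPM in batch 2, below the 14.0 CPM of T-like cells and small against the 20 CPM added, so the test restates the separation of the groups within the cluster and is no further evidence of a difference between the classes. The same test for Acta2, the other of the 2 run, gave -0.38 (exact permutation p = 0.543).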

How the results depend on the processing

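No member was called in any fit except Acta2 in tumor-like cells without the filter on low counts. Without that filter 242 genes were called in whole libraries and 45 in tumor-like cells, 1 of them a member, and DESeq2 called 2 in each. Leaving out 1 library in turn gave 0 to 1 calls in whole libraries, 0 to 1 in the Rgs5 cluster, 0 to 2 in endothelial-like cells and 0 to 3 in fibroblast-like cells. The 2 fibroblast-like calls fell to 0 without a batch term, without the pooled KO libraries, with members among the clustering genes, with classes by marker UMIs, with free RNA subtracted and with no minimum number of cells, and to 1 with the replicate block. With the replicate number as a block no member was called. Same-numbered libraries did not deviate together (correlations -0.227, 0.205, -0.279 and 0.202), so the numbers were not taken as pairs. Of 308 values of single members under an alternative, 282 kept their direction and side of the threshold, 25 changed sign and 1 (tumor-like Acta2, 0.88) passed the threshold. Without 1 library, log2 fold changes ran from -0.35 to 0.076 for Pdgfa in whole libraries and from -0.26 to 0.14 in tumor-like cells, from -0.060 (without KO 5+6) to 0.20 for Pdgfrb in whole libraries (-0.057 without WT 1) and from -0.054 to 0.21 in tumor-like cells (-0.021 without KO 5+6), from -0.16 (without KO 5+6) to 0.41 for Rgs5 in whole libraries (-0.131 without WT 4 and -0.018 without KO 2+3) and from -0.36 to 0.40 for Acta2 in the Rgs5 cluster (-0.237 without KO 2+3 and -0.116 without KO 5+6). Rgs5 in whole libraries was -0.011 by DESeq2 and -0.35 without the pooled libraries, and in tumor-like cells 0.64 with classes by marker UMIs. Acta2 in the Rgs5 cluster was -0.074 by DESeq2, -0.0050 without TMM, -0.81 without the pooled libraries, -0.17 with members among the clustering genes and -0.014 with free RNA subtracted. The Rgs5 cluster's share of non-tumor cells differed by -1.87 points without the pooled libraries and by 0.0339 with all cells as the denominator, and from -2.15 to -0.428 without 1 library. Its share beside endothelial-like cells differed by -11.6 points in batch 2 only and -30.8 with classes by marker UMIs, and from -22.1 to -4.85 without 1 library, where 5 of 10 fits no longer passed. The causes were not tested. Classes by marker UMIs left under 10 Rgs5 cluster and endothelial-like cells per library, so those fits gave no value.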
